A study of Bos taurus with 30 samples.

Results

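The genes described here encode 7 secreted or cell surface proteins of mucosal epithelium: MUC1 (ENSBTAG00000017104), WFDC2 (ENSBTAG00000013928), SPINK1 (ENSBTAG00000015558), PIGR (ENSBTAG00000019798), CLU (ENSBTAG00000005574), FGFBP1 (ENSBTAG00000031497) and VGF (ENSBTAG00000009868). They were chosen by name, with earlier results of these data known, and each name matched 1 of the 27607 genes counted. Primary epithelial cells and stromal-enriched cells from the endometrium of nonpregnant cows (Bos taurus) in the early luteal phase were kept in a microfluidic device, the epithelial cells above a porous membrane and the stromal cells below it, and the RNA of each cell type was sequenced after 3 days of flow. In the glucose experiment (12 libraries), the medium held 5 mM or 50 mM glucose. In the insulin experiment (18 libraries), it held vehicle (acetic acid in phosphate-buffered saline), 1 ng/mL or 10 ng/mL insulin, with 5 mM glucose in all arms. Each of the 10 groups held 3 libraries, numbered as replicates 1 to 3, and the study's methods describe a paired design. The study describes the 3 as biological replicates, while the labels do not tie a replicate number to a cow, and the p-values measure the spread between these libraries.

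MUC1 is a membrane-anchored mucin of the apical surface, part of the barrier that an embryo or a microbe meets first. WFDC2 and SPINK1 are small secreted protease inhibitors, PIGR carries polymeric immunoglobulins across epithelium, and CLU is a secreted chaperone. FGFBP1 is a secreted carrier that releases fibroblast growth factors from the matrix, and VGF is a granule protein that neurons and endocrine cells cut into peptides. In the uterus, luminal and glandular epithelium release proteins of these classes into the fluid of the lumen.

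Library totals ranged from 13493503 to 16647701 counted reads in the glucose experiment and from 8826470 to 13214728 in the insulin experiment. A level is given as CPM, the library's counts scaled to a common total by TMM within its experiment. Where no read was counted, the level may still reach that of 3 reads, as far as counting error goes. On library totals this is 0.222 CPM in the smallest glucose library and 0.340 CPM in the smallest insulin library. With vehicle, all 20 epithelial markers tested (keratins, claudins, EPCAM and others) were higher in the epithelial libraries and all 19 stromal markers tested were lower, by the test given next. A gene was called when edgeR's quasi-likelihood test, with the replicate number as a block and Benjamini-Hochberg adjustment over all genes tested, gave an adjusted p-value under 0.05 and a log2 fold change beyond 0.1 in either direction.

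6 of the 7 genes were mainly epithelial, and VGF was present in both cell types. With vehicle, 6 of the 7 genes were called higher in epithelial cells, beside 55.2% of all genes tested called in either direction and 27.8% called higher. At 1 ng/mL insulin the count was again 6 of 7, beside 58.9% called and 29.6% called higher, and at 10 ng/mL it was 6 of 7, beside 54.4% and 27.1%. At 5 mM glucose, 5 of 7 were called higher, beside 21.1% called and 10.5% called higher, and at 50 mM only PIGR and CLU were called, beside 17.3% and 6.39%. VGF was not called in any of the 5 comparisons. The 7 genes were chosen as proteins of mucosal epithelium, with earlier results of these data known, so these counts are a description. With vehicle, PIGR had no stromal read, and SPINK1 and FGFBP1 had stromal reads in replicate 2 only. These 3 genes were kept for testing through their epithelial reads. At 50 mM glucose, MUC1 (2.01, SE 0.714, adjusted p = 0.108), WFDC2 (2.15, SE 0.718, adjusted p = 0.0949) and SPINK1 (1.90, SE 0.687, adjusted p = 0.113) were called by DESeq2 and, with edgeR, without replicate 3, the pair whose stromal library had the most epithelial marker RNA. FGFBP1 (2.06, SE 0.680, adjusted p = 0.0931) was called there by DESeq2. Of the 20 epithelial markers, 19 were called higher at 5 mM and 2 at 50 mM glucose. In bulk RNA, fewer cells of a type and less RNA per cell cannot be told apart.

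**Figure D1:**
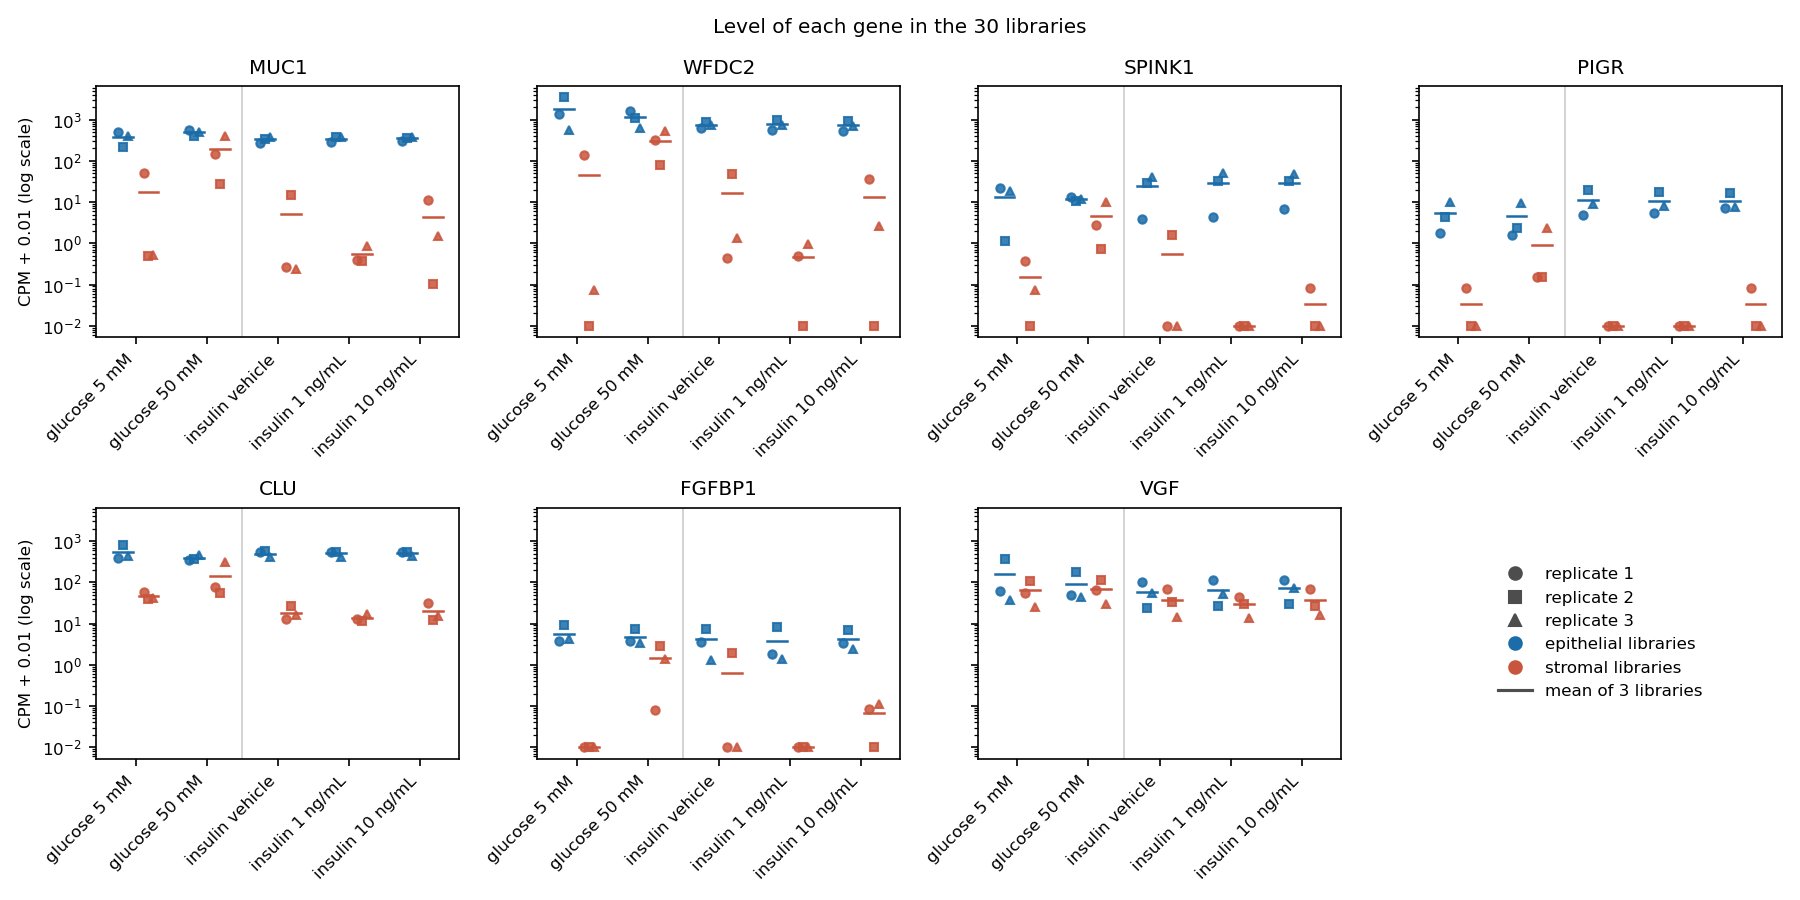
Level of each gene in the 30 libraries, as CPM + 0.01 on a log axis, by group on the x axis, with epithelial libraries in blue, stromal libraries in red, a marker shape for each replicate number and a bar at the mean of 3 libraries. VGF is the one gene whose epithelial and stromal points lie in the same range, and MUC1, WFDC2, SPINK1, PIGR and FGFBP1 spread widely among the stromal libraries.

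MUC1, the barrier mucin, had 271, 345 and 380.1 CPM in the 3 epithelial vehicle libraries and 0.256, 14.6 and 0.223 CPM in the stromal ones. The groups did not overlap, and stromal replicate 2 stood above the other two. Its epithelial minus stromal log2 fold change was 7.22 (SE 1.32, adjusted p = 0.00995), and the call was lost without replicate 1 (6.45, adjusted p = 0.0604). The pooled levels differed 64.7-fold (95% counting interval 55.3 to 76.2). At 5 mM glucose, MUC1 had 499, 217 and 394 CPM in epithelial cells and 51.6, 0.488 and 0.508 CPM in stromal cells, a log2 fold change of 7.35 (SE 1.61, adjusted p = 0.0251). The pooled levels there differed 22.7-fold, a smaller ratio than the fit gave, since stromal replicate 1 held 719 of the 734 stromal reads. The 5 mM call was lost without the replicate block (4.38, adjusted p = 0.106) and without replicate 2 (5.99, adjusted p = 0.103).

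WFDC2, a whey acidic protein family inhibitor of the female reproductive tract, had 629, 889 and 747 CPM in the epithelial vehicle libraries and 0.426, 47.1 and 1.34 CPM in the stromal ones, with no overlap. The log2 fold change was 7.56 (SE 1.52, adjusted p = 0.0133), and the call was lost without replicate 1 (6.32, adjusted p = 0.0621) and without replicate 3 (6.59, adjusted p = 0.0519). At 10 ng/mL insulin, the calls of MUC1 and WFDC2 were lost without replicate 3 (6.69, adjusted p = 0.0506, and 6.97, adjusted p = 0.126). At 5 mM glucose, it had 1343, 3458 and 551 CPM in epithelial cells against 136, 0 and 0.0635 CPM in stromal cells. The groups did not overlap there either, but the 3 stromal libraries held 1900, 0 and 1 reads, and the difference was not called (10.98, SE 3.32, adjusted p = 0.068). It was called without replicate 1 (adjusted p = 4.73e-32), without replicate 3 (adjusted p = 5.71e-06) and by DESeq2 (adjusted p = 7.16e-06). Without replicate 1, the stromal libraries left held 0 and 1 reads. An adjusted p as small as 4.73e-32 cannot be taken as a measure of the spread of WFDC2 between replicates.

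SPINK1, the pancreatic secretory trypsin inhibitor, had 3.98, 28.2 and 40.9 CPM in the epithelial vehicle libraries and 0, 1.61 and 0 CPM in the stromal ones. Epithelial replicate 1 was the lowest of its group and still above every stromal library. Its log2 fold change was 5.45 (SE 0.822, adjusted p = 0.00571). At 1 ng/mL insulin the stromal libraries held no SPINK1 read, so that the epithelial level was at least 324-fold higher, with the floor of 3 counts taken over the group. The lower end of the 95% counting interval, a stricter bound, was 263.

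PIGR, the polymeric immunoglobulin receptor, had 4.94, 19.9 and 8.83 CPM in the epithelial vehicle libraries. No read fell on PIGR in the 3 stromal vehicle libraries or in the 3 at 1 ng/mL insulin, which makes the epithelial levels at least 110.3-fold and at least 119-fold higher by the same floor, with lower ends of the counting interval of 89.2 and 96.3. At 10 ng/mL insulin the stromal libraries held 1 PIGR read in all, and the ratio was 357 (95% counting interval 63.5 to 14129). At 50 mM glucose, PIGR had 1.57, 2.32 and 9.53 CPM in epithelial cells and 0.143, 0.145 and 2.39 CPM in stromal cells. The groups overlapped, although the level was higher in epithelial cells at each replicate number, and the log2 fold change was 2.73 (SE 0.470, adjusted p = 0.0212). That call was lost without the block (2.31, adjusted p = 0.264) and without replicate 1 (2.60, adjusted p = 0.164).

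CLU, the clusterin gene, had 530.2, 562 and 407 CPM in the epithelial vehicle libraries and 12.7, 27.0 and 16.0 CPM in the stromal ones. It was the one of these 6 genes with at least 126 reads in every stromal library. The epithelial minus stromal log2 fold change was 4.78 (SE 0.259, adjusted p = 0.000914) with vehicle, 5.18 (SE 0.271, adjusted p = 0.000105) at 1 ng/mL and 4.76 (SE 0.330, adjusted p = 0.0014) at 10 ng/mL insulin. At 5 mM glucose the log2 fold change was 3.49 (SE 0.463, adjusted p = 0.00713). At 50 mM it was 1.83 (SE 0.433, adjusted p = 0.0453), and this call was lost without the block (1.42, adjusted p = 0.202) and without replicate 1 (1.68, adjusted p = 0.286).

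FGFBP1, the fibroblast growth factor carrier, was scarce, with 3.67, 7.44 and 1.31 CPM in the epithelial vehicle libraries and 0, 1.90 and 0 CPM in the stromal ones. Stromal replicate 2 exceeded epithelial replicate 3, so the groups overlapped. Its log2 fold change was 3.14 (SE 0.871, adjusted p = 0.0343), and it was not called without the block (2.64, adjusted p = 0.109), without replicate 1 (2.36, adjusted p = 0.084) or without replicate 3 (2.89, adjusted p = 0.0711). At 5 mM glucose no stromal library held an FGFBP1 read, and the epithelial level was at least 80.2-fold higher, with a lower end of the counting interval of 64.7.

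VGF, the neuroendocrine granule protein, had 99.8, 23.9 and 55.8 CPM in the epithelial vehicle libraries and 67.2, 32.8 and 14.5 CPM in the stromal ones. The groups overlapped, and at replicate 2 the stromal level was the higher one. The epithelial minus stromal log2 fold change was 0.65 (SE 0.463, adjusted p = 0.288) with vehicle, 1.04 (SE 0.394, adjusted p = 0.0679) at 1 ng/mL and 0.96 (SE 0.407, adjusted p = 0.107) at 10 ng/mL insulin. Without replicate 2, VGF was called higher in epithelial cells with vehicle (1.19, adjusted p = 0.0463) and at 1 ng/mL (1.62, adjusted p = 7.9e-05), and DESeq2 called it at 1 ng/mL (1.06, adjusted p = 0.0292). At 5 mM and 50 mM glucose the log2 fold changes were 0.80 (SE 0.429, adjusted p = 0.263) and 0.26 (SE 0.264, adjusted p = 0.527).

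Epithelial marker RNA differed among the stromal libraries, and the 7 genes followed it unequally. The summed level of the 20 epithelial markers in a stromal library was 6.98%, 4.06% and 1.02% of the epithelial mean at 5 mM glucose and 16.3%, 11.4% and 52.2% at 50 mM. In replicate 2 the keratin KRT18 made up much of this sum, with 195 of 385 CPM at 5 mM, where EPCAM was at 0, and 354 of 1082 CPM at 50 mM, where EPCAM was at 24.7 CPM against 386 ± 49.2 CPM in epithelial cells (SD, n = 3). In the insulin experiment it was 0.292% to 0.642% in 7 stromal libraries, 4.65% in vehicle replicate 2 and 3.74% in 10 ng/mL replicate 1. These 2 libraries were also the highest of the 9 in MUC1 (14.6 and 11.1 CPM) and WFDC2 (47.1 and 36.6 CPM). SPINK1 and FGFBP1 were high in the first of them only (17 and 20 reads, against 1 and 1 in the second), and PIGR had 0 and 1 reads. All 20 markers were detected in both, while the other 7 held between 2 and 11 markers at 0, among them CLDN3 and OVOL1 in all 3 libraries at 1 ng/mL. Stromal replicate 2 at 5 mM glucose held 7 markers at 0, which were EPCAM, CLDN3, CLDN7, ESRP1, GRHL2, RAB25 and PKP3. The part of epithelial RNA in the stromal levels was not tested.

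MUC1 and WFDC2 lay near the marker share in some libraries and far below it in others. MUC1 in the 50 mM stromal libraries reached 33.4%, 6.40% and 94.7% of its epithelial mean and WFDC2 22.4%, 5.39% and 36.1%, within 0.472 to 2.04 times the marker share. At 5 mM both were near the share in replicate 1, at 1.72 and 1.34 times it, but MUC1 was at 0.0280 and 0.116 times the share in replicates 2 and 3 and WFDC2 at 0 and 0.00426 times. PIGR at 50 mM was at 0.178 to 0.929 times the share. FGFBP1 was highest in 50 mM replicate 2, at 53.8% of its epithelial mean, rather than in replicate 3, at 25.8%. CLU in the 7 stromal insulin libraries with a low marker share was at 2.24% to 3.48% of its epithelial mean, which was 4.83 to 10.9 times the marker share. VGF in the same 7 libraries was at 21.3% to 102% of its epithelial mean, 38.7 to 240 times the marker share, and it was at 23.8% in 50 mM replicate 3, where the marker share was the highest.

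**Figure D2:**
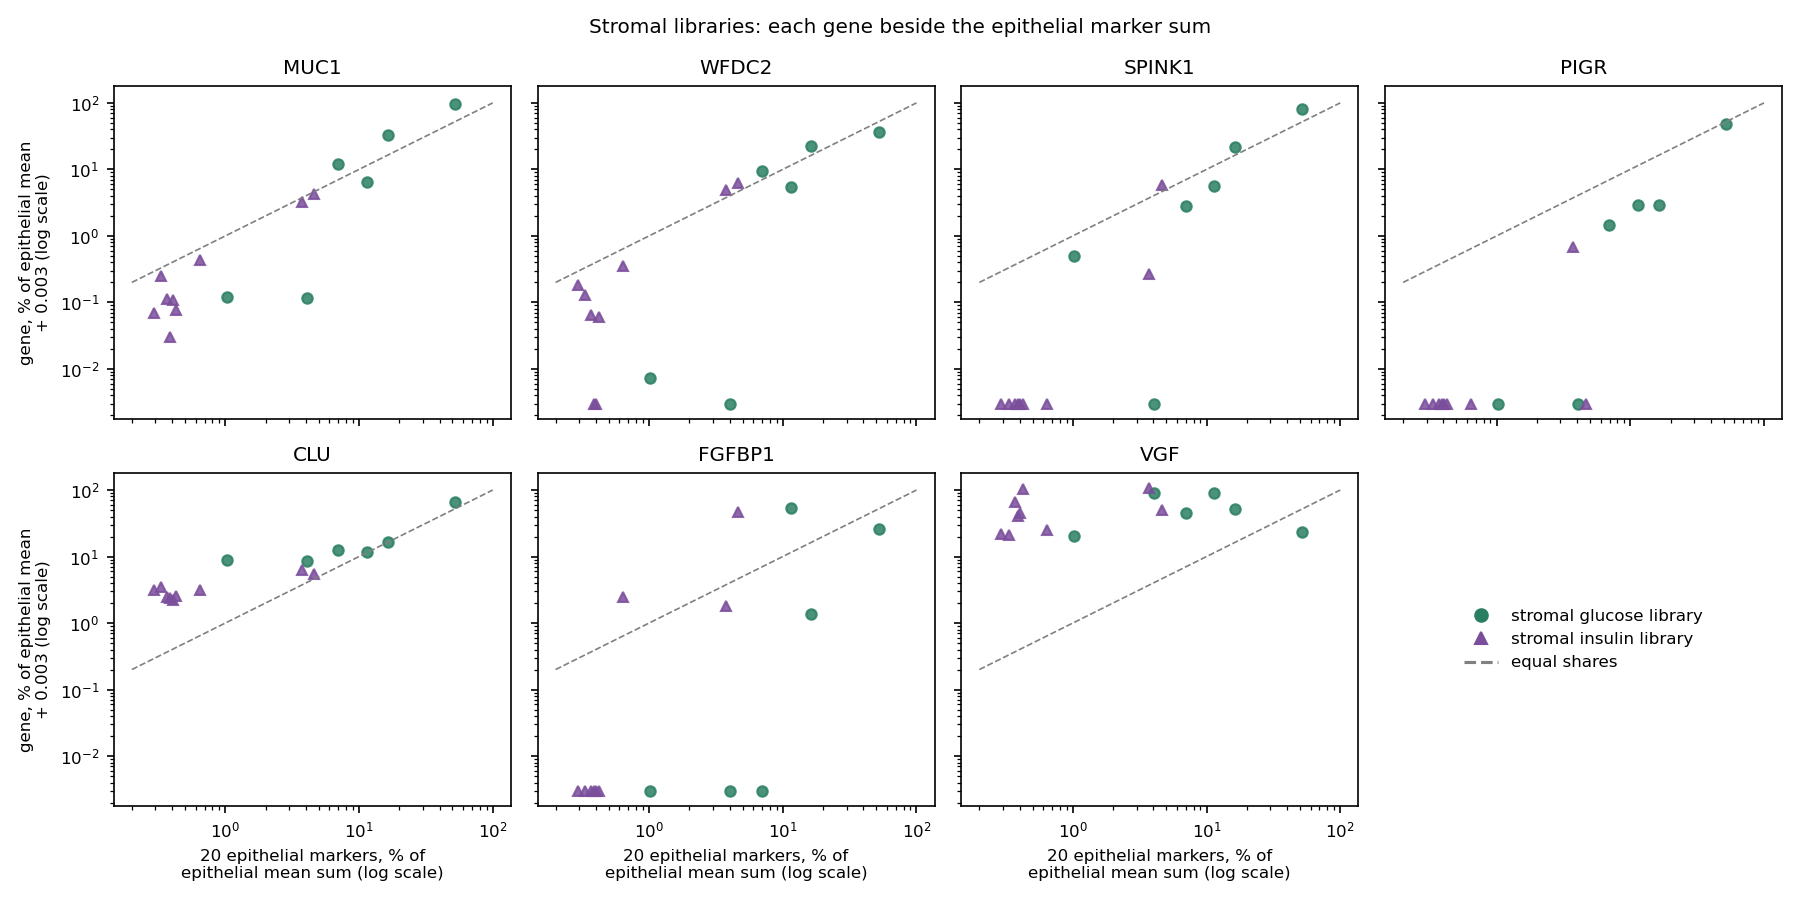
Level of each gene in the 15 stromal libraries as a percentage of its epithelial mean (plus 0.003, log axis) against the summed level of 20 epithelial markers on the same scale (log axis), with glucose libraries as circles, insulin libraries as triangles and equal shares as a dashed line. VGF lies above the line in every library but 50 mM replicate 3, and CLU lies above it in all 15, only just so in 50 mM replicates 1 and 2.

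Glucose was compared to see how a high concentration acts on each cell type. In epithelial cells, none of the 7 genes was called between 50 mM and 5 mM, beside 0% of the 13713 genes tested. None had an unadjusted p under 0.05, beside 1.55% of all genes, and DESeq2 also called none of them. The log2 fold changes lay between -0.42 for CLU and 0.46 for MUC1, and the lowest adjusted p was 0.804. Stromal markers were higher at 50 mM in the same libraries: all 18 tested had a fold change above 0, with a median log2 fold change of 0.67 and none called, and their summed level went from 4921, 3061 and 1656 CPM to 6868, 5785 and 2356 CPM. Their part in the differences given next was not tested.

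MUC1 had 499, 217 and 394 CPM at 5 mM glucose and 570, 403 and 492 CPM at 50 mM, higher at 50 mM in 3 of 3 pairs, but the groups overlapped and the log2 fold change of 0.46 (SE 0.238, adjusted p = 0.804) was not called. PIGR had 1.81, 4.27 and 10.0 CPM at 5 mM and 1.57, 2.32 and 9.53 CPM at 50 mM, lower in 3 of 3 pairs, with a log2 fold change of -0.39 (SE 0.324, adjusted p = 0.804). FGFBP1 had 3.80, 9.14 and 4.14 CPM at 5 mM and 3.79, 7.19 and 3.42 CPM at 50 mM, lower in 3 of 3 pairs though nearly equal in replicate 1, with a log2 fold change of -0.22 (SE 0.282, adjusted p = 0.805). For PIGR and FGFBP1 the replicates of a group differed from each other by more than the 2 glucose concentrations did.

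Replicate 2 at 5 mM glucose stood apart from the other epithelial libraries of its group. SPINK1 had 21.6, 1.12 and 18.2 CPM at 5 mM, with 15 reads in replicate 2, and 12.9, 10.7 and 11.7 CPM at 50 mM. Thus SPINK1 was lower at 50 mM in replicates 1 and 3 and higher in replicate 2. The log2 fold change was 0.34 (SE 0.831, adjusted p = 0.883) with all libraries, and -0.69 (adjusted p = 0.0116) without replicate 2, which was a call. Leaving out replicate 2 raised the calls over all genes from 0 to 221.

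The same library was high in WFDC2, CLU, VGF and FGFBP1, and it was the lowest epithelial glucose library in MUC1, at 217 CPM. The MUC1 log2 ratio of CPM + 1 between 50 and 5 mM was 0.89 in replicate 2, against 0.19 and 0.32 in replicates 1 and 3. WFDC2 had 1343, 3458 and 551 CPM at 5 mM and 1649, 1122 and 636 CPM at 50 mM, and its log2 fold change was -0.37 (SE 0.445, adjusted p = 0.805) with all libraries and 0.25 without replicate 2. CLU had 384, 808 and 447 CPM at 5 mM and 349, 363 and 466 CPM at 50 mM, with a log2 fold change of -0.42 (SE 0.308, adjusted p = 0.804). VGF had 61.1, 376 and 36.4 CPM at 5 mM and 48.8, 175 and 43.9 CPM at 50 mM, with a log2 fold change of -0.40 (SE 0.320, adjusted p = 0.804). For VGF and FGFBP1, replicate 2 was the highest library at both concentrations. The epithelial marker sum of the 5 mM replicate 2 library was 168% of the epithelial mean and the highest of the 6, with KRT18 at 1809 CPM and EPCAM at 151 CPM, against 651 and 383 CPM for KRT18 and 448 and 334 CPM for EPCAM in the other two. Its part in these differences was not tested.

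**Figure D3:**
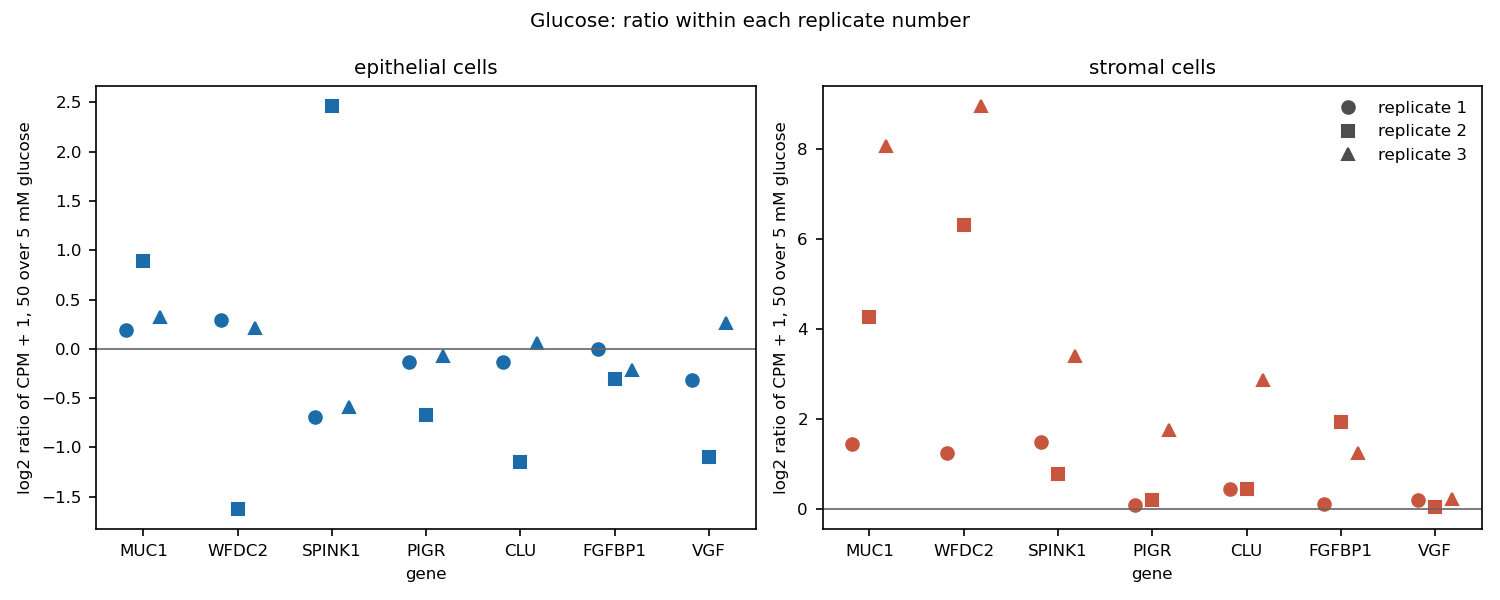
Log2 ratio of CPM + 1 between 50 and 5 mM glucose within each replicate number (y axis) for each gene (x axis), in epithelial cells on the left and stromal cells on the right, with separate y scales. In epithelial cells replicate 2 lies far from the other pairs for WFDC2, SPINK1, CLU and VGF and less far for MUC1, and in stromal cells all points lie above 0.

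In stromal cells, all 7 genes were higher at 50 mM than at 5 mM glucose in 3 of 3 pairs, and none was called, beside 0% of the 13644 genes tested. PIGR and FGFBP1 did not pass the filter on low counts, so 5 genes were tested, 1 with an unadjusted p under 0.05, beside 4.87% of all genes. DESeq2 called MUC1, WFDC2 and SPINK1 among 195 genes in all, and without replicate 1 edgeR called WFDC2 among 50.

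MUC1 had 51.6, 0.488 and 0.508 CPM in the stromal libraries at 5 mM glucose and 143, 27.5 and 406 CPM at 50 mM, with a log2 fold change of 5.23 (SE 2.01, adjusted p = 0.696). WFDC2 had 136, 0 and 0.0635 CPM at 5 mM and 326, 78.7 and 527 CPM at 50 mM, with a log2 fold change of 7.04 (SE 2.995, adjusted p = 0.696). Both genes overlapped between the groups because of the 5 mM replicate 1 library. SPINK1 had 0.359, 0 and 0.0635 CPM at 5 mM and 2.79, 0.724 and 10.2 CPM at 50 mM, without overlap, and its log2 fold change was 4.80 (SE 0.965, unadjusted p = 0.00657, adjusted p = 0.696 by edgeR). The DESeq2 log2 fold changes of the 3 genes were 5.70 (adjusted p = 0.0356), 11.07 (adjusted p = 0.00372) and 5.09 (adjusted p = 0.00401).

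CLU had 58.2, 39.8 and 41.3 CPM in the stromal libraries at 5 mM glucose and 78.9, 54.5 and 305 CPM at 50 mM, with a log2 fold change of 1.21 (SE 0.611, adjusted p = 0.696). Replicate 3 at 50 mM, the library with the highest marker share, was far above the rest. PIGR had 1, 0 and 0 reads at 5 mM and 2, 2 and 37 reads at 50 mM, and FGFBP1 had 0, 0 and 0 reads against 1, 39 and 21. VGF had 55.7, 109.6 and 25.2 CPM at 5 mM and 64.5, 113 and 29.4 CPM at 50 mM, and its log2 fold change of 0.15 (SE 0.105, adjusted p = 0.698) was the smallest of the 5. The epithelial markers moved the same way: all 19 tested had a fold change above 0, with a median log2 fold change of 4.42, beside -0.03 for all genes, and none called. The marker share was higher at 50 mM in all 3 pairs, by the most in replicate 3. All 19 stromal markers tested were below 0, with a median of -0.54 and none called, and their sum in 50 mM replicate 3 was 20750 CPM, 32.1% of the stromal mean, against 60641 to 89063 CPM in the other 5 libraries. Without replicate 3 the log2 fold changes were 2.53 for MUC1, 3.04 for WFDC2, 3.28 for SPINK1, 0.42 for CLU and 0.10 for VGF, with none called. The part of epithelial RNA in these differences was not tested.

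Insulin was compared at 2 doses with vehicle. In epithelial cells at 10 ng/mL, VGF was higher than with vehicle and was the 1 called gene of the 7, beside 0.124% of all genes tested called in either direction (16 of 12853) and 0.07% called higher. VGF had 99.8, 23.9 and 55.8 CPM with vehicle and 116, 29.5 and 73.2 CPM at 10 ng/mL, so it was higher in 3 of 3 pairs, while the groups overlapped because the replicates differed far more than the doses. The log2 fold change was 0.30 (SE 0.0567, adjusted p = 0.0091), a 1.23-fold difference, and VGF ranked 12 of 12853 by p-value.

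The VGF call depended on the pairing and on single replicates. It was lost without the replicate block (0.29, adjusted p = 1), by DESeq2 (0.31, adjusted p = 1) and without replicate 3 (0.25, adjusted p = 0.477), where the fold changes themselves stayed close to 0.30. It held without replicate 1, without replicate 2, with DESeq2's size factors in edgeR and with every gene that had a count. The paper does not list VGF among the epithelial transcripts changed at 10 ng/mL. At 1 ng/mL VGF had 116, 26.8 and 52.9 CPM in epithelial cells, higher than vehicle in 2 of 3 pairs, with a log2 fold change of 0.11 (SE 0.0654, adjusted p = 1). Between 10 and 1 ng/mL, VGF was higher at 10 ng/mL in replicates 2 and 3 and nearly equal in replicate 1, with a log2 fold change of 0.19 (SE 0.0755, unadjusted p = 0.0212, adjusted p = 0.983 by edgeR), and it was called without replicate 1 (0.34, adjusted p = 0.0349). Of 17 stromal markers tested at 10 ng/mL against vehicle in these cells, 5 had a fold change above 0, with a median log2 fold change of -0.11 and none called. Their summed level was 1930, 1224 and 3855 CPM with vehicle and 1548, 1295 and 3496 CPM at 10 ng/mL.

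SPINK1 in epithelial cells had 3.98, 28.2 and 40.9 CPM with vehicle, 4.37, 31.8 and 49.6 CPM at 1 ng/mL and 6.71, 32.8 and 46.8 CPM at 10 ng/mL insulin. It was higher than vehicle in 3 of 3 pairs at both doses, within wide and overlapping groups. The log2 fold change was 0.22 (SE 0.0843, unadjusted p = 0.0164, adjusted p = 1 by edgeR) at 1 ng/mL and 0.26 (SE 0.0883, unadjusted p = 0.00602, adjusted p = 0.486 by edgeR) at 10 ng/mL, and neither was called.

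**Figure D4:**
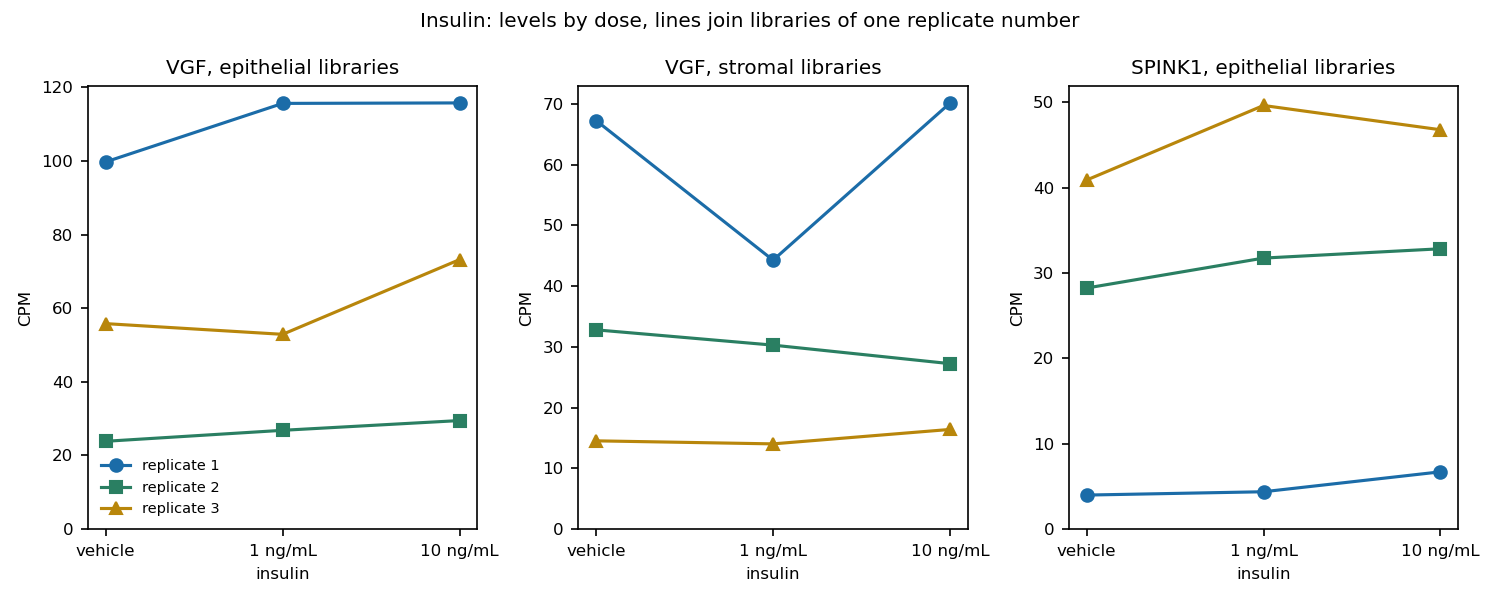
Levels in CPM (y axis, from 0) of VGF in epithelial and stromal libraries and of SPINK1 in epithelial libraries, by insulin dose (x axis), with lines joining libraries of the same replicate number. The lines of the replicates stay apart at every dose, and in epithelial cells each VGF line ends above its vehicle value.

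The other epithelial genes differed little with insulin. MUC1 had 271, 345 and 380.1 CPM with vehicle and 302, 364 and 388 CPM at 10 ng/mL, higher in 3 of 3 pairs, with a log2 fold change of 0.09 (SE 0.0400, unadjusted p = 0.0335, adjusted p = 0.685 by edgeR). WFDC2 had 567, 992 and 734 CPM at 1 ng/mL and 537, 942 and 694 CPM at 10 ng/mL, lower at the higher dose in 3 of 3 pairs, with a log2 fold change of -0.07 (SE 0.0345, unadjusted p = 0.0463, adjusted p = 0.983 by edgeR). CLU had 530.2, 562 and 407 CPM with vehicle and 537, 542 and 436 CPM at 10 ng/mL, and its log2 fold change of 0.02 (SE 0.0397, adjusted p = 0.955) was near 0 with a small error. PIGR, with log2 fold changes of -0.10 (SE 0.124) at 1 ng/mL and -0.06 (SE 0.133) at 10 ng/mL, and FGFBP1, with -0.15 (SE 0.223) and 0.07 (SE 0.204), had 15 to 202 reads a library and correspondingly larger errors.

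At 1 ng/mL against vehicle, none of the 7 genes was called in epithelial cells, beside 0% of 12966 genes tested, with 1 unadjusted p under 0.05 (2.95% of all genes) and no member called by DESeq2. Between 10 and 1 ng/mL none was called either, beside 0% of 12873 genes tested, with 2 unadjusted p-values under 0.05 (4.44% of all genes) and no member called by DESeq2.

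In stromal cells, no gene of the 7 was called at either insulin dose. At 1 ng/mL against vehicle, 2 genes passed the filter on low counts, beside 0.0157% of all genes tested called. At 10 ng/mL 4 genes passed it, beside 0% called, with log2 fold changes of 0.48 for MUC1 (SE 1.78), 0.08 for WFDC2 (SE 1.88), 0.06 for CLU (SE 0.367) and -0.03 for VGF, and between the doses 3 passed it, beside 0.0313% called. Unadjusted p-values under 0.05 numbered 1, 0 and 2 in these comparisons, beside 5.16%, 2.79% and 3.91% of all genes, and DESeq2 called none of the genes.

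VGF in stromal cells had 67.2, 32.8 and 14.5 CPM with vehicle, 44.3, 30.3 and 14.0 CPM at 1 ng/mL and 70.1, 27.2 and 16.4 CPM at 10 ng/mL insulin. It was lower than vehicle at 1 ng/mL in 3 of 3 pairs, mainly in replicate 1. The log2 fold change was -0.32 (SE 0.101, unadjusted p = 0.00793, adjusted p = 0.87 by edgeR) at 1 ng/mL, which was a call without replicate 3 (-0.39, adjusted p = 0.0342), where CLU and 103 genes in all were called, and -0.03 (SE 0.0974, adjusted p = 0.999) at 10 ng/mL. CLU had 12.7, 27.0 and 16.0 CPM with vehicle, 12.6, 11.3 and 17.5 CPM at 1 ng/mL and 31.5, 12.1 and 15.6 CPM at 10 ng/mL, and its high library in the vehicle and 10 ng/mL groups was the one with the high epithelial marker share.

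WFDC2 between 10 and 1 ng/mL had a log2 fold change of 4.48 (SE 0.631, adjusted p = 0.083) in stromal cells. It had 5, 0 and 11 reads at 1 ng/mL and 502, 0 and 26 reads at 10 ng/mL, so that replicate 1 held nearly all of the difference. In the same comparison KRT19 was the one called epithelial marker (3.62, adjusted p = 0.0478), and the marker share of 10 ng/mL replicate 1 was 3.74% against 0.368% at 1 ng/mL. WFDC2 was called without replicate 2 (4.48, adjusted p = 0.0103) and, with every gene that had a count, at an adjusted p of 2.6e-19. The last value came from the same WFDC2 reads as the adjusted p of 0.083. It cannot be taken as a measure of the spread of WFDC2 between these libraries.

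The difference between the cell types in the effect of a treatment was tested in 4 comparisons, and none of the 7 genes was called, beside 0% of all genes tested in each. For 50 against 5 mM glucose, 5 of the 7 genes had an unadjusted p under 0.05, and DESeq2 called WFDC2, SPINK1, PIGR and FGFBP1. Over all genes, 7.53% had an unadjusted p under 0.05 and DESeq2 called 234. The epithelial minus stromal effect was -4.96 for MUC1 (SE 1.91, adjusted p = 0.649), -8.08 for WFDC2 (SE 2.97, adjusted p = 0.64), -4.48 for SPINK1 (SE 1.54, adjusted p = 0.64), -1.63 for CLU (SE 0.716, adjusted p = 0.663) and -0.55 for VGF (SE 0.376, adjusted p = 0.781), all on the log2 scale. For PIGR it was -5.10 (SE 1.17, unadjusted p = 0.0028, adjusted p = 0.631 by edgeR). For FGFBP1 it was -7.67 (SE 0.871, unadjusted p = 0.000184, adjusted p = 0.331 by edgeR). These 2 values rest on stromal libraries at 5 mM with 1, 0 and 0 reads of PIGR and 0, 0 and 0 of FGFBP1. Without replicate 1, MUC1, WFDC2, PIGR and FGFBP1 were called, with adjusted p-values of 0.000306 to 0.0308, among 307 genes in all. The stromal libraries with higher epithelial marker shares enter each of these values. For VGF at 10 ng/mL against vehicle the difference was 0.32 (SE 0.165, unadjusted p = 0.0713, adjusted p = 1 by edgeR), so the epithelial call was not shown to be particular to that cell type. For 1 ng/mL against vehicle, 10 ng/mL against vehicle and 10 against 1 ng/mL insulin, the genes with an unadjusted p under 0.05 numbered 5, 2 and 1, beside 5.5%, 4.06% and 6.28% of all genes, and DESeq2 called none of the 7. At 1 ng/mL against vehicle they were MUC1, WFDC2, SPINK1, FGFBP1 and VGF. Of these, only VGF passed the filter on low counts in the stromal comparison alone. In the stromal vehicle libraries SPINK1 had 0, 17 and 0 reads and FGFBP1 had 0, 20 and 0. Neither gene had a read in the stromal libraries at 1 ng/mL. Replicate 2 held the largest difference for MUC1 (3.62), WFDC2 (5.75), SPINK1 (1.55) and FGFBP1 (1.68), and replicate 1 for VGF (0.804). Stromal vehicle replicate 2 was the library with a marker share of 4.65%, and its part in these values was not tested.

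The replicate number held most of the spread of the 7 genes among the epithelial insulin libraries, and less for some of them in the glucose experiment. In the 9 epithelial insulin libraries it took 89.9% of the sum of squares of log2(CPM + 1) for FGFBP1 and 94.2% to 98.1% for the other 6, beside a median of 73.7% over 10254 genes. It holds 25% of the degrees of freedom. The insulin group took 0.230% (CLU) to 3.70% (MUC1), beside a median of 5.92%. SPINK1 went from a mean of 5.02 CPM in replicate 1 to 30.9 in replicate 2 and 45.8 in replicate 3, and VGF from 110.4 to 26.7 and 60.7 CPM. WFDC2 and PIGR were lowest in replicate 1 and highest in replicate 2, the opposite ranking to VGF.

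In the 6 epithelial glucose libraries the replicate number took 92.1% to 94.7% for PIGR, FGFBP1 and VGF. It took 32.2% for CLU, 54.2% for SPINK1, 61.7% for MUC1 and 70.4% for WFDC2, beside a median of 57.0% and 40% of the degrees of freedom. VGF followed the replicate number in stromal cells too, with 98.9% in the glucose and 94.5% in the insulin libraries. Its stromal order in the glucose experiment, with replicate 2 the highest (111 CPM on average) and replicate 3 the lowest (27.3 CPM), was the same as its epithelial order (275 and 40.1 CPM). In the insulin experiment replicate 1 was the highest in both cell types, with 60.5 CPM in stromal cells, but replicate 2 was above replicate 3 in stromal cells (30.1 and 15.0 CPM) and below it in epithelial cells (26.7 and 60.7 CPM).

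**Figure D5:**
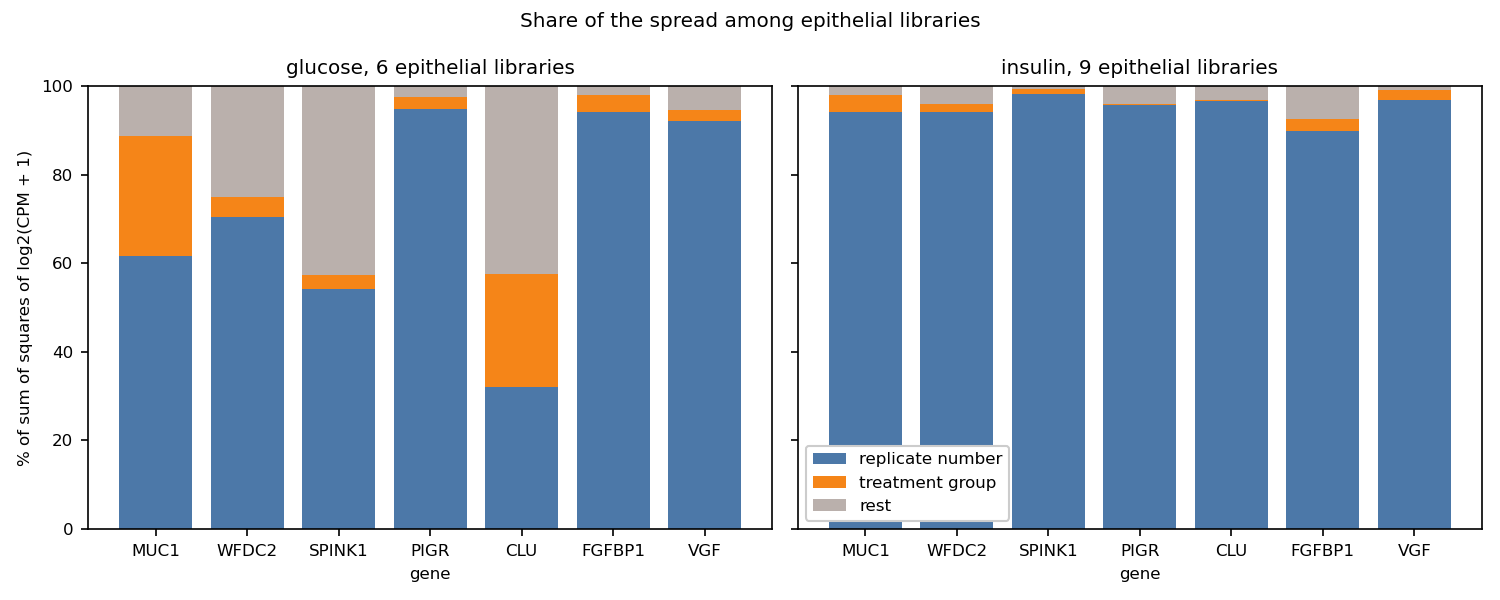
Share of the sum of squares of log2(CPM + 1) among epithelial libraries (y axis, percent) by gene (x axis) that goes with the replicate number, the treatment group and the rest, for 6 glucose libraries on the left and 9 insulin libraries on the right. The replicate number takes at least 89.9% for each gene in the insulin experiment and less for CLU, SPINK1, MUC1 and WFDC2 in the glucose experiment.

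The order of the 10 group means was set across 2 experiments that were normalized separately. Of the 9 neighbouring pairs in each gene's order, all 9 overlapped in their libraries for MUC1, FGFBP1 and VGF, 8 for WFDC2, SPINK1 and PIGR and 7 for CLU. For MUC1, WFDC2, SPINK1, PIGR, CLU and FGFBP1, all 5 epithelial group means lay above the 5 stromal ones. The highest epithelial group means were 488 ± 83.7 CPM for MUC1 (SD, n = 3, 50 mM glucose), 1784 ± 1503 for WFDC2 (5 mM glucose), 546 ± 229 for CLU (5 mM glucose) and 5.70 ± 2.99 for FGFBP1 (5 mM glucose). They were 28.8 ± 20.3 CPM for SPINK1 (10 ng/mL insulin) and 11.2 ± 7.75 for PIGR (vehicle). VGF went from 158 ± 189 CPM in epithelial cells at 5 mM glucose to 29.5 ± 15.1 in stromal cells at 1 ng/mL insulin, with epithelial and stromal groups mixed in between.

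Genes of the same functions were examined in 8 lists, of which 90 of 125 genes had an identifier. In the 8 treatment comparisons, 53 to 72 of them were tested and edgeR called none. Between 1 and 9 of them had an unadjusted p under 0.05, and DESeq2 called up to 8, in the stromal glucose comparison. MUC16, which the paper lists as changed in stromal cells between 1 and 10 ng/mL insulin, had no single identifier by name and was not tested. In epithelial cells at 10 ng/mL against vehicle, SPINK5, a protease inhibitor of the same family as SPINK1, had a log2 fold change of 0.19 (SE 0.0512, adjusted p = 0.208). MUC4, MUC13 and MUC20 had 0.07, 0.12 and 0.06 in the same comparison, all with adjusted p-values of at least 0.839.

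Between the cell types with vehicle, the lists differed in direction, beside 27.8% of all genes called higher and 27.3% called lower in epithelial cells. Of the 14 other mucins listed, only 3 were tested. All 3 were higher in epithelial cells, with MUC4, a membrane mucin, at 170 ± 57.7 against 0.935 ± 1.34 CPM (log2 fold change 7.65, adjusted p = 0.00159) and MUC20 at 470 ± 191 against 6.61 ± 11.02 CPM. Of the mucin O-glycosylation enzymes, 9 of 16 were higher and 3 lower, with GCNT3, which branches O-glycans, at 219 ± 40.0 against 2.34 ± 4.05 CPM. The median log2 fold changes of these lists were 7.59 and 0.83, beside 0.00 for all genes.

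Of the other protease inhibitors, 6 of 9 were higher and 2 lower in epithelial cells with vehicle, with a median log2 fold change of 3.31. SPINT1, which inhibits membrane serine proteases, was at 175 ± 34.2 against 2.81 ± 4.31 CPM, while WFDC1, of the same protein family as WFDC2, was at 1.05 ± 0.817 against 53.9 ± 13.8 CPM and so lower (log2 fold change -5.72, adjusted p = 0.000998). Of the epithelial serine proteases, 7 of 8 were higher and none lower, among them ST14, the matriptase gene, at 210 ± 18.1 against 2.91 ± 4.87 CPM. Of the mucosal defence and uterine secretion genes, only 5 of 21 were tested, with AGR2 and LTF higher and CTSB lower.

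The lists around FGFBP1 and VGF held genes that were lower in epithelial cells with vehicle. FGF ligands, receptors and carriers were higher in epithelial cells for 3 of 11 and lower for 5, with FGF2 at 58.0 ± 39.6 against 581 ± 189 CPM (log2 fold change -3.49, adjusted p = 0.00265). FGF7 and FGF10, which signal from mesenchyme to epithelium, were lower too, FGF10 with a log2 fold change of -5.52 (adjusted p = 0.00212). Granins and genes of prohormone processing were lower for 8 of 12 and higher for none. They included BDNF, a growth factor that induces VGF in neurons, at 0.167 ± 0.145 against 23.4 ± 5.95 CPM, its receptor NTRK2, and CPE, a carboxypeptidase of secretory granules, at 3.64 ± 1.84 against 149 ± 46.2 CPM. For the clusterin receptors and other secreted chaperones, 2 of 6 were higher and 2 lower, APOE among the lower ones (log2 fold change -2.23, adjusted p = 0.000914).

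The genes most like each member over the 15 epithelial libraries, each experiment centred on its own mean, had Pearson correlations of log2(CPM + 1) between 0.912 and 0.978 across 10381 genes (10382 for FGFBP1). They are a description, since libraries of 1 replicate number deviate together and the pattern is set mainly by 3 replicates in each experiment. MUC1 was most like IPMK, RBMS1 and CUL3, and WFDC2 most like SMPD2, ACADVL and MOGS. SPINK1 was most like ELMO1 and the histone genes HIST2H2BF and H2B, and PIGR most like UPK3BL1, CHD6 and PDE3B. CLU was most like NFKBIL1, TSC2 and BIN1. FGFBP1 was most like ENSBTAG00000049392, ICAM1 and ITGB6, and VGF most like INPP5E, KRT5 and PALLD. KRT5, a basal keratin, followed VGF in having its highest level in replicate 2 of the glucose experiment (31.6 CPM at 5 mM and 19.9 CPM at 50 mM) and in replicate 1 of the insulin experiment (16.0 CPM with vehicle).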

How the data were processed

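Stranded libraries of total RNA from epithelial and stromal cells were sequenced as 75 bp single-end reads. Per the labels and the study's methods, the authors checked reads with FastQC, trimmed them with cutadapt, mapped them by Rsubread onto the bovine genome in Ensembl release 96, kept unique alignments and deposited raw counts per gene from featureCounts. Versions and the strand setting of the counting are not given in the sources used here. Symbols came from the authors' comparison tables, whose DESeq2 fold changes and p-values were not used. No gene lengths were used, so levels are not compared between genes.

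The counts were analysed in R 4.3.3 with edgeR 4.0.16 (TMM, filterByExpr, glmQLFit and glmQLFTest), over 17 comparisons, and with DESeq2 1.42.0 as an alternative. SE is the log2 fold change divided by the root of F. In the treatment comparisons, same-numbered libraries deviated together (correlations of 0.214 to 0.897), whereas between cell types the lowest was 0.034 at 5 mM glucose and 0.0911 at 10 ng/mL insulin. The block was kept throughout because the study's methods state a paired design. On simulated data with 50 genes changed by each of 0.5, 1, 3 and 5 on the log2 scale, the test called 39, 44, 50 and 48 of them, with 12 false calls, for epithelial 10 ng/mL insulin against vehicle (12724 genes), and 0, 13, 47 and 48, with 16 false calls, for stromal 50 against 5 mM glucose (13236 genes). For the cell types with vehicle (12512 genes) it called 1, 20, 42 and 45, with 16 false calls, and for the difference between the cell types in the glucose effect (14478 genes) 0, 0, 39 and 49, with 12 false calls. The sizes 3 and 5 were added after a first run with smaller sizes recovered few genes in the last 3 settings, and false calls exceeded the nominal 5% of calls in all 4. Pooled ratios use the TMM-scaled library sizes, a choice made after ratios on library totals had been seen.

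The members and lists were chosen with earlier results of these data known. Members were named in every comparison. From each related list at most 3 genes were named, those called with the largest fold change or else those with the highest mean. For each member the 3 genes with the highest correlation, among those with a mean of at least 5 CPM, were named. KRT5, KRT18, EPCAM and SPINK5 values outside this rule were chosen after their values were seen. Library precision is limited by totals of 8826470 to 16647701 reads.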

Additional observations from a re-analysis of the deposited data

How the results depend on the processing

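Insulin fold changes within a cell type were followed only where edgeR gave an unadjusted p under 0.05, so most of those near 0 were left out. Between the cell types, those resting on up to 3 stromal reads were left out too. The glucose effect and its difference between the cell types were followed for every gene tested, and the insulin difference for VGF at 10 ng/mL only. Of the 55 fold changes of the 7 genes that were followed, all but 3 kept their direction under every alternative run that gave an adjusted p. None of the 3 was called with all libraries, and SPINK1 was called in the reversed direction without replicate 2. Leaving out 1 replicate moved WFDC2 between the glucose concentrations in epithelial cells over -0.74 to 0.25 and SPINK1 over -0.69 to 1.13, with SPINK1 at -0.22 without the replicate block, and VGF in stromal cells between 10 and 1 ng/mL insulin over -0.010 to 0.50. The cause was not tested. Without the block, the number of the 7 genes called fell to 0 for epithelial 10 ng/mL insulin against vehicle, where it had been 1, and to 0 between the cell types at 50 mM glucose, where it had been 2. At the other comparisons the block moved this number by 1 at most. DESeq2 called 0 for epithelial 10 ng/mL against vehicle, 3 for stromal glucose, 6 between the cell types at 50 mM and 4 for the difference between the cell types in the glucose effect. With every gene that had a count, 2 were called, MUC1 and WFDC2, for stromal 1 ng/mL against vehicle and 2 for stromal 10 against 1 ng/mL. Leaving out 1 replicate, the number called ranged from 0 to 1 for epithelial and stromal glucose, epithelial 10 ng/mL against vehicle and both comparisons of 10 with 1 ng/mL. It ranged from 0 to 2 for stromal 1 and 10 ng/mL against vehicle and for the 3 insulin differences between the cell types, from 0 to 4 for the glucose difference, from 0 to 5 between the cell types at 50 mM glucose and from 3 to 7 with vehicle. Over all genes, the 16 calls at epithelial 10 ng/mL against vehicle became 0 without the block, 0 by DESeq2 and 49 with every gene that had a count. The study's own paired DESeq2 analysis lists changed transcripts for this comparison. CEBPB, NR4A2 and MMP13 are among them, and edgeR called these here too. The difference between the study's DESeq2 analysis and the DESeq2 run here was not examined. The 2397 calls between the cell types at 50 mM became 1088 without the block, and 0 without replicate 1 and 3897 without replicate 3. DESeq2 made 195 calls for stromal glucose, where edgeR made 0. The 70 group means moved by less than 1 SD under library totals in place of TMM. Genes with few reads, FGFBP1 and PIGR above all, are limited by depth in stromal cells. In the smallest stromal insulin library, vehicle replicate 3, a level of up to 0.325 CPM on the library total can go uncounted.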
